A study of Arabidopsis thaliana with 12 samples.

Results

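The RAV/EDF transcription factor genes of Arabidopsis thaliana were taken by locus identifier from the count tables, and all 4 of 33602 loci were present: *EDF1* (AT1G25560, also *TEM1*), *EDF2* (AT1G68840, also *RAV2* or *TEM2*), *EDF3* (AT3G25730) and *EDF4* (AT1G13260, also *RAV1*). RNA was sequenced from whole seedlings of the Columbia-0 ecotype, 2 days old and kept in darkness after a brief white-light treatment for germination that ended with a far-red pulse. The mutant genotypes were *pif1pif3pif4pif5* (*pifq*), *pif1pif4pif5* (*pif145*) and *pif3*, and the reference was wild type (WT), with 3 libraries each. PIF1, PIF3, PIF4 and PIF5 are bHLH transcription factors that keep seedlings in the dark growth programme, so the genotypes lack all of these factors, all but PIF3, PIF3 alone, or none. The study's methods describe the libraries of each genotype as biological replicates, and p-values measure the spread between them. Each mutant line carries its lesions in every cell, and the seedlings were harvested whole.

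RAV proteins carry an AP2 and a B3 DNA-binding domain and mostly act as transcriptional repressors. The EDF genes were named as ethylene response DNA-binding factors: ethylene raises their transcripts through the transcription factors EIN3 and EIL1, which are stabilised when the receptors, CTR1 and EIN2 relay the hormone signal. *EDF1* and *EDF2*, under their names *TEM1* and *TEM2*, are best known for repressing the flowering gene *FT* and gibberellin synthesis genes, and *EDF4*, as *RAV1*, for slowing growth and for repressing abscisic acid regulators during germination. In dark-grown seedlings ethylene maintains the apical hook, and PIFs promote that hook and the elongation of the hypocotyl.

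Total counts lay between 23907577 and 41247734 per library. The lesions were visible in the tables: *PIF3* had 0.945 ± 0.461 CPM (counts scaled to library size with TMM factors) in *pifq* and 1.14 ± 0.519 CPM in *pif3*, against 61.7 ± 15.9 CPM in WT, and *PIF1* had 0.0955 ± 0.0262 CPM in *pifq* and 0.145 ± 0.0189 CPM in *pif145*, against 9.75 ± 0.804 CPM in WT (SD, n = 3 each). *PIF5* fell likewise in *pifq* and *pif145*, but *PIF4*, counted only near its 3′ end, had 2.77 ± 0.202 CPM in *pifq*, 5.53 ± 1.02 CPM in *pif145* and 3.29 ± 1.85 CPM in WT, so its count did not check that lesion. Shoot, root and seed markers were all detected, as the label whole seedlings requires, and of the flower markers *AG* had no read, *AP3* at most 5 reads in any genotype and *PI* between 1.31 and 2.38 CPM. Of the 3 seed markers, the storage protein gene *CRA1* had 61.2 ± 24.6 CPM in *pifq*, 52.4 ± 23.6 CPM in *pif145* and 586 ± 180 CPM in *pif3*, against 637 ± 321 CPM in WT, while *OLEO1* and *SESA3* were called in no comparison with WT. Its part in the results below was not tested.

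All 4 PIFs bind the G-box (CACGTG, which reads the same on both strands). The paper reports that PIF3 also binds the PBE-box (CACATG, which is read as CATGTG from the other strand). It cites other work in which PIF1 and PIF4 bound the PBE-box and PIF5 did not. Each member had at least 1 of these hexamers within the 1500 bases before its annotated start in the RefSeq annotation of TAIR10.1. *EDF4* had a G-box 364 bases and a PBE-box 333 bases before its start, *EDF1* a PBE-box at 496, *EDF3* PBE-boxes at 491 and 1185, and *EDF2* PBE-boxes at 1086 and 1428. Among 27440 genes 19.5% held a G-box, 51.0% a PBE-box and 59.9% either within the same distance. The share among the 4 members was higher, but with 4 genes it is given only as a description. The box nearest to each gene's start is shown with 30 bases on either side, since these stretches were also alike between members; capitals mark the hexamers, and each run is written 5′ to 3′ on the gene's own strand.

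EDF1, chr1:8983775-8983840, minus strand: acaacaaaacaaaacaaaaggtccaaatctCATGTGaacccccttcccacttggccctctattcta
EDF2, chr1:25879039-25879104, plus strand: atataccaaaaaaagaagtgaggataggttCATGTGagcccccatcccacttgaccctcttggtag
EDF3, chr3:9395751-9395816, plus strand: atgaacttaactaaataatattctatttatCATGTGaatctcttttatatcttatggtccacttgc
EDF4, chr1:4541774-4541870, plus strand: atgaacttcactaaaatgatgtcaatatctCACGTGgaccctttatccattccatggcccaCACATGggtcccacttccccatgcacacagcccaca

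Aligned on the box without gaps (for *EDF4*, on its G-box), the 60 flanking bases were identical at 35 positions (58.3%) between *EDF3* and *EDF4* and at 34 (56.7%) between *EDF1* and *EDF2*, against 21 to 26 positions (35.0% to 43.3%) in the other 4 pairings. The coding sequences paired in the same way, with 74.7% identity between *EDF3* and *EDF4*, 74.4% between *EDF1* and *EDF2* and 65.8% to 68.1% in the other pairings. A match to a hexamer is a description of the letters and not a measured binding site. From other assays, the paper lists *EDF3* among genes with PIF3 bound at such a box in the promoter. It also reports *EDF3* as higher in *pif145* than in *pifq* by RT-qPCR.

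**Figure D1:**
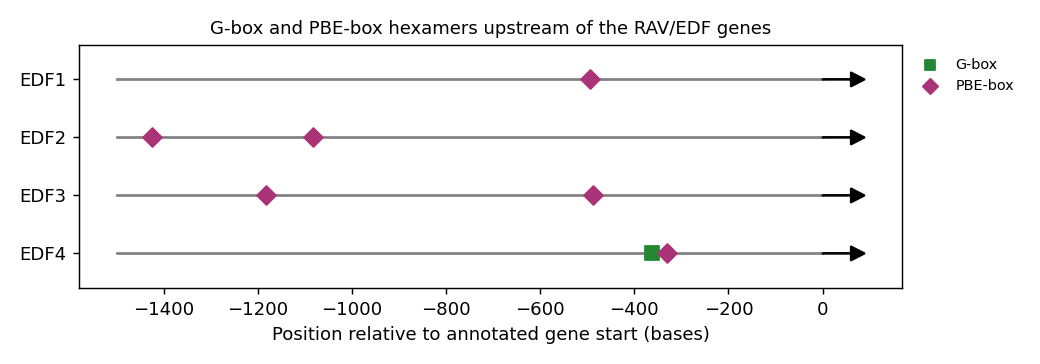
G-box (green squares) and PBE-box (purple diamonds) hexamers on either strand in the 1500 bases before the annotated start of each gene, with position in bases on the horizontal axis and the arrow marking the start and direction of transcription. *EDF4* has the only G-box, 364 bases before its start, and the nearest PBE-boxes of *EDF1* and *EDF3* lie at 496 and 491 bases.

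*EDF3* lies on chromosome 3 (9396272 to 9397766, plus strand, 1 exon), and *EDF1* (8981556 to 8983314, minus strand, 1 exon), *EDF2* (25880155 to 25882222, plus strand, up to 2 exons) and *EDF4* (4542168 to 4543970, plus strand, 1 exon) lie on chromosome 1. No annotated gene overlaps any of them, although the next gene downstream of *EDF3*, AT3G25740, starts 17 bases away on the same strand. Reads of 36 bases were counted over the last 500 bases of each transcript, and all 465 such reads possible there were unique to the member in the TAIR10.1 transcripts, so that their likeness did not mix the counts. Because the counted length is the same for every gene, CPM values are also compared between members below.

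*EDF3* showed the widest difference between genotypes among the members. Its level was 6.02, 12.4 and 18.0 CPM in the *pifq* libraries (replicates 1, 2 and 3), 13.3, 21.7 and 25.5 CPM in *pif145* and 23.9, 22.7 and 44.6 CPM in *pif3*, against 29.2, 44.9 and 71.9 CPM in WT. Every *pifq* and every *pif145* library was below every WT library, whereas *pif3* and WT overlapped. The means were 12.1 ± 6.0 CPM in *pifq*, 20.2 ± 6.22 CPM in *pif145*, 30.4 ± 12.3 CPM in *pif3* and 48.7 ± 21.6 CPM in WT (SD, n = 3 each), which put *pifq* at 25.0%, *pif145* at 41.5% and *pif3* at 62.4% of WT. In bulk RNA, fewer cells that express a gene and less RNA per cell cannot be told apart.

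*EDF4*, the member with a G-box, had the highest mean level of the 4 in every genotype, although in *pifq* it lay within the spread of *EDF2*. It had 49.8, 52.5 and 36.2 CPM in *pifq*, 83.2, 75.5 and 63.0 CPM in *pif145* and 94.1, 75.4 and 68.0 CPM in *pif3*, against 89.9, 107 and 79.3 CPM in WT. The *pifq* libraries were below every other library, and the other 3 genotypes overlapped. Over all genes, every *pifq* library lay below every library of WT for 16.7%, of *pif145* for 5.96% and of *pif3* for 13.4%. The share of genes below all 3 at once was not computed. Means were 46.2 ± 8.74 CPM in *pifq* (50.1% of WT), 73.9 ± 10.2 CPM in *pif145* (80.2%), 79.2 ± 13.4 CPM in *pif3* (85.8%) and 92.2 ± 14.2 CPM in WT.

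*EDF1* had 41.5, 40.7 and 27.9 CPM in *pifq*, 44.8, 34.7 and 28.1 CPM in *pif145* and 52.2, 36.5 and 38.1 CPM in *pif3*, against 45.6, 55.5 and 40.9 CPM in WT. All genotypes overlapped, with means of 36.7 ± 7.62, 35.9 ± 8.40, 42.2 ± 8.64 and 47.3 ± 7.48 CPM in *pifq*, *pif145*, *pif3* and WT. *EDF2* had 36.9, 45 and 53.9 CPM in *pifq*, 32.6, 26.1 and 34.5 CPM in *pif145* and 40.8, 33.9 and 53.7 CPM in *pif3*, against 30.4, 41.8 and 51.8 CPM in WT. Its 3 *pif145* libraries were below all *pifq* libraries and overlapped those of *pif3* and WT, with means of 45.3 ± 8.53 CPM in *pifq*, 31.0 ± 4.40 CPM in *pif145*, 42.8 ± 10.06 CPM in *pif3* and 41.3 ± 10.7 CPM in WT.

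**Figure D2:**
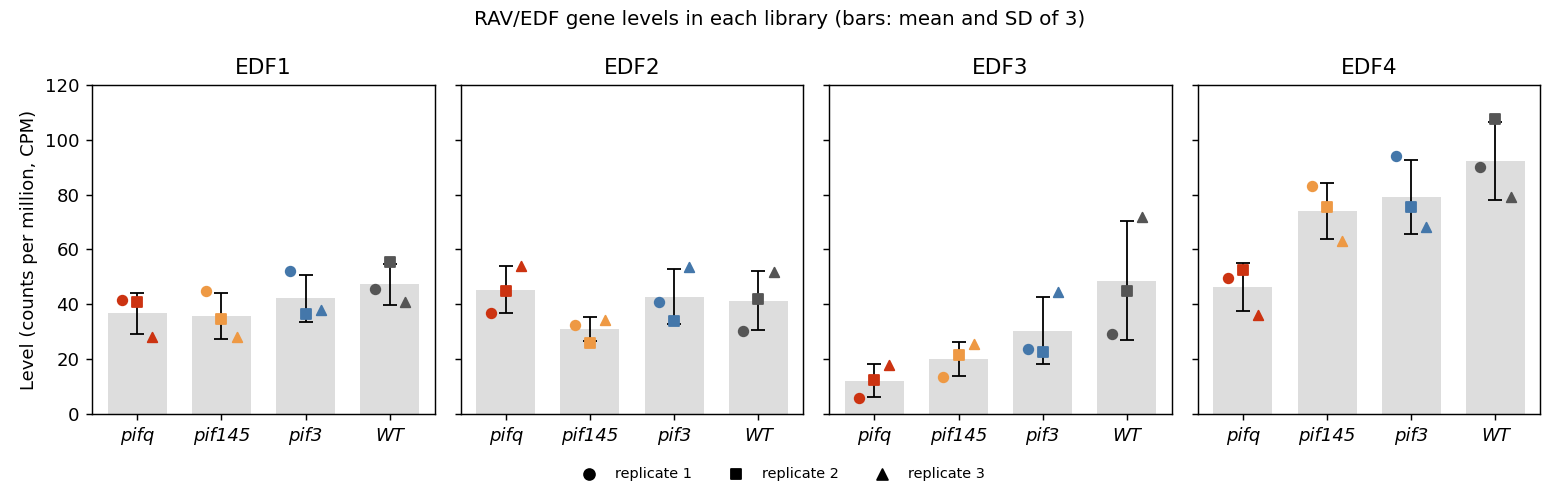
Level of each gene in CPM (vertical axis) in *pifq*, *pif145*, *pif3* and WT seedlings, with points for libraries (shape gives the replicate number), bars for means and whiskers for the SD of 3 libraries. *EDF3* means are 12.1, 20.2, 30.4 and 48.7 CPM from left to right, and the 3 *pifq* libraries of *EDF4* lie below all others.

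The comparison of *pifq* with WT asked what the loss of all 4 PIFs changed. A gene was called when the edgeR test gave an adjusted p of at most 0.05 and at least a 2-fold difference, and 1 of the 4 members was called, beside 8.28% of all 18356 genes tested. *EDF3* fell (log2 -2.0, SE 0.44, edgeR adjusted p = 0.00743). *EDF4* also passed the p threshold and stood just under the 2-fold limit (log2 -0.998, SE 0.19, adjusted p = 0.00341), beside 18.4% of all genes that passed at any fold. For *EDF3* and *EDF4* the *pifq* libraries all lay below the WT libraries, as for 16.7% of all genes. *EDF1* (log2 -0.37, SE 0.22, adjusted p = 0.280) and *EDF2* (log2 0.13, SE 0.23, adjusted p = 0.735) did not pass. Without replicate 2 of all genotypes *EDF3* was no longer called, with the same size of difference (log2 -2.06, adjusted p = 0.12), and it was called under each of the other 14 omissions of a replicate number or a library. *EDF4* was called under 5 of these 15 omissions, with log2 values between -1.10 and -0.84.

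Libraries with the same replicate number deviated together across the genotypes, and a fit with the replicate number as an added term (a replicate block) gave smaller errors. With it, 2 members were called in *pifq*/WT, beside 10.4% of all genes: *EDF3* (log2 -2.0, SE 0.14, adjusted p = 8.33e-10) and *EDF4* (log2 -1.01, SE 0.09, adjusted p = 2.42e-08). *EDF4* stood just under 2-fold again with number 2 (log2 -0.98) or number 3 (log2 -0.95) left out of the blocked fit. *EDF1* then passed the p threshold at a small difference (log2 -0.38, SE 0.12, adjusted p = 0.00964), as did 50.5% of all genes, and *EDF2* did not (log2 0.14, SE 0.12, adjusted p = 0.335). Within the replicates, *EDF3* in *pifq* stood at 20.6%, 27.6% and 25.1% of the WT library with the same number, and *EDF4* at 55.4%, 48.9% and 45.6%. *EDF1* stood at 91.1%, 73.2% and 68.2% and *EDF2* at 122%, 108% and 104%, so that *EDF2* alone was not lower in any of the 3 pairs.

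The comparison of *pif145* with WT concerned seedlings that keep PIF3 but lack PIF1, PIF4 and PIF5. None of the 4 members was called, beside 1.71% of all genes, although all 4 differences were negative. *EDF3* had the lowest (log2 -1.27, SE 0.43, adjusted p = 0.137), and its libraries did not overlap, as for 10.2% of all genes with *pif145* below WT. With the replicate block *EDF3* was called (log2 -1.23, SE 0.13, adjusted p = 1.27e-06), beside 3.55% of all genes. The other 3 members then passed the p threshold at less than 2-fold, as did 31.7% of genes: *EDF1* (log2 -0.42, adjusted p = 0.00931), *EDF2* (log2 -0.39, adjusted p = 0.0179) and *EDF4* (log2 -0.32, adjusted p = 0.00959). None of these 3 passed with number 2 or number 3 left out of the blocked fit (adjusted p between 0.0883 and 0.239).

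For *pif3* against WT, the loss of PIF3 alone, none of the members was called, beside 0.0381% of all genes without the replicate block and 0.735% with it. *EDF3* had log2 -0.68 (SE 0.42, adjusted p = 0.9998), and with the block log2 -0.65 (SE 0.13, adjusted p = 0.00428), short of the 2-fold limit. That p threshold was passed by 7.88% of genes. *EDF1* (log2 -0.17, SE 0.22), *EDF2* (log2 0.05, SE 0.23) and *EDF4* (log2 -0.22, SE 0.19) did not pass it in either fit. *EDF3* in *pif3* stood at 81.8%, 50.5% and 62.0% of the WT library with the same number. The blocked value no longer passed with number 2 left out (log2 -0.49, adjusted p = 0.0615) or number 3 left out (log2 -0.62, adjusted p = 0.0881), and without WT replicate 3 the fit on genotype alone gave log2 -0.29.

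The direct comparisons of the mutants gave the order of the levels. In *pifq*/*pif145*, the loss of PIF3 where the other PIFs are absent, no member was called, beside 0.725% of genes, or 1.88% with the replicate block. *EDF4* was lower in every *pifq* library, as for 5.96% of genes (log2 -0.68, SE 0.19, adjusted p = 0.166, and 2.75e-05 with the block). *EDF2* was higher in every *pifq* library, as for 6.45% of genes (log2 0.54, SE 0.23, adjusted p = 0.498, and 0.00445 with the block). *EDF3* overlapped (log2 -0.73, SE 0.43, adjusted p = 0.748, and 0.000916 with the block). In the blocked fit 14.7% of genes passed at any fold, and none of these 3 differences reached 2-fold.

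In *pifq*/*pif3*, where seedlings without PIF3 also lose PIF1, PIF4 and PIF5, no member was called, beside 5.02% of genes. *EDF3* (log2 -1.32, SE 0.43, adjusted p = 0.0711) and *EDF4* (log2 -0.78, SE 0.19, adjusted p = 0.0217) were lower in every *pifq* library, as for 13.4% of genes, and *EDF4* passed the p threshold alone, as did 10.8%. With the replicate block *EDF3* was called (log2 -1.35, SE 0.14, adjusted p = 3.28e-07), beside 7.19% of genes, and *EDF4* passed at less than 2-fold (log2 -0.78, SE 0.09, adjusted p = 1.19e-06), as did 42.2% at any fold. In *pif145*/*pif3* no member was called, beside 0.806% of genes, or 2.46% with the block. There *EDF3* had log2 -0.59 (SE 0.42, adjusted p = 0.748, and 0.00454 with the block) and *EDF2* log2 -0.46 (SE 0.23, adjusted p = 0.532, and 0.0128 with the block), where 19.8% of genes passed at any fold.

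From lowest to highest mean, *EDF3* and *EDF4* therefore ran *pifq*, *pif145*, *pif3*, WT, *EDF1* ran *pif145*, *pifq*, *pif3*, WT, and *EDF2* ran *pif145*, WT, *pif3*, *pifq*. No neighbours in these orders passed the test in the fit without the block. With it, all 3 neighbouring steps of *EDF3* passed the p threshold, as did the step between *pifq* and *pif145* for *EDF4* and that between *pif145* and WT for *EDF2*, each at under 2-fold. The steps between *pifq* and *pif145* (*EDF3* and *EDF4*) still passed with any replicate number left out of the blocked fit. Those of *EDF3* between *pif145* and *pif3* (adjusted p = 0.115 with number 3 left out) and between *pif3* and WT, and that of *EDF2* (adjusted p = 0.239 with number 2 left out and 0.229 with number 3 left out), did not.

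**Figure D3:**
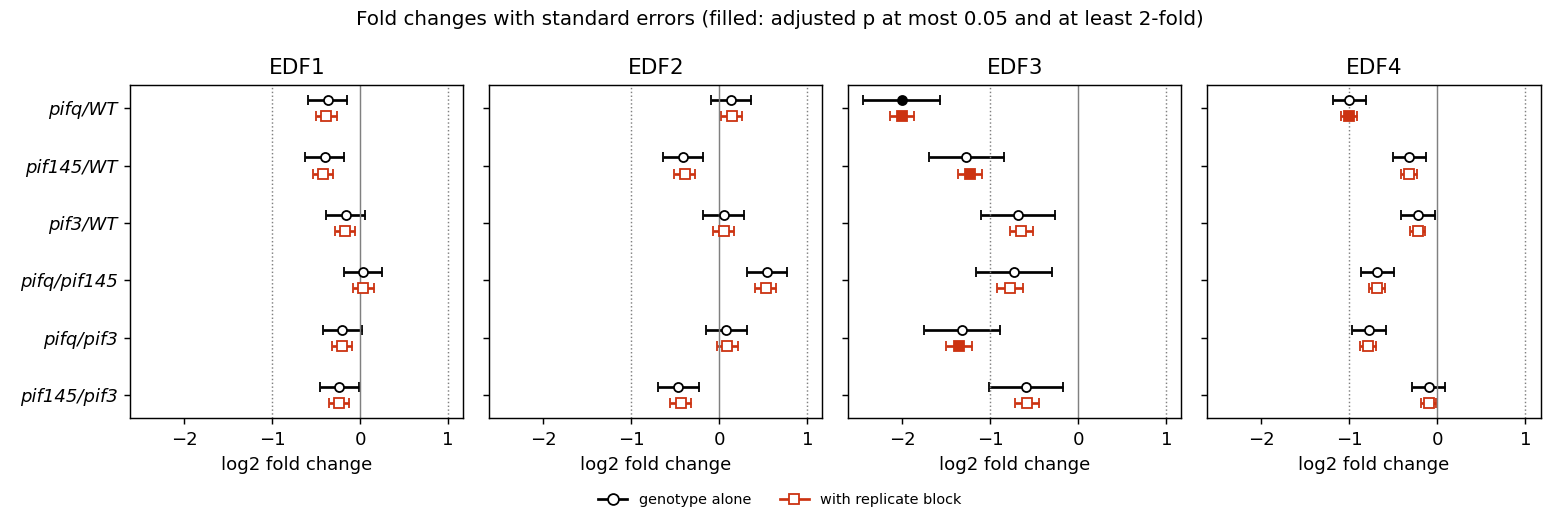
log2 fold change (horizontal axis) of each gene in the 6 comparisons of genotypes (vertical axis), with standard errors, from the fit on genotype alone (black circles) and with the replicate block (red squares); filled symbols mark calls and dotted lines 2-fold. *EDF3* in *pifq*/WT is at log2 -2.0 in both fits, with an SE of 0.44 without the block and 0.14 with it.

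The interaction contrast set the PIF3 step without the other PIFs (*pifq*/*pif145*) against the PIF3 step with them (*pif3*/WT), as a log2 difference. No member passed, beside 0.109% of genes, or 2.57% with the replicate block. For *EDF3* the changes were alike within error (difference of log2 -0.05, SE 0.59, and -0.13, SE 0.19 with the block). *EDF4* had the lowest difference (log2 -0.46, SE 0.27, adjusted p = 0.9999, and 0.0623 with the block), with *EDF2* on the other side (log2 0.49, SE 0.32, adjusted p = 0.9999, and 0.168 with the block).

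The sum of the 4 levels was 140 ± 9.0 CPM in *pifq*, 161 ± 11.7 CPM in *pif145* and 195 ± 22.9 CPM in *pif3*, against 230 ± 30.02 CPM in WT. *EDF3* made up 8.65% ± 4.39 of that sum in *pifq*, 12.8% ± 4.68 in *pif145*, 15.5% ± 5.54 in *pif3* and 20.8% ± 7.65 in WT. *EDF2* made up 32.3% ± 6.44 of it in *pifq*, 19.4% ± 3.19 in *pif145*, 21.9% ± 3.8 in *pif3* and 17.9% ± 2.99 in WT. *EDF1* held 26.15% ± 5.26 in *pifq*, 22.1% ± 3.57 in *pif145*, 21.7% ± 3.06 in *pif3* and 20.8% ± 3.53 in WT. Its mean level was nonetheless lower in *pifq* (36.7 CPM) than in WT (47.3 CPM), so a higher share need not be a higher level. *EDF4* held 32.9% ± 5.53 in *pifq*, 45.8% ± 3.54 in *pif145*, 40.9% ± 6.58 in *pif3* and 40.6% ± 7.12 in WT (SD, n = 3 each).

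**Figure D4:**
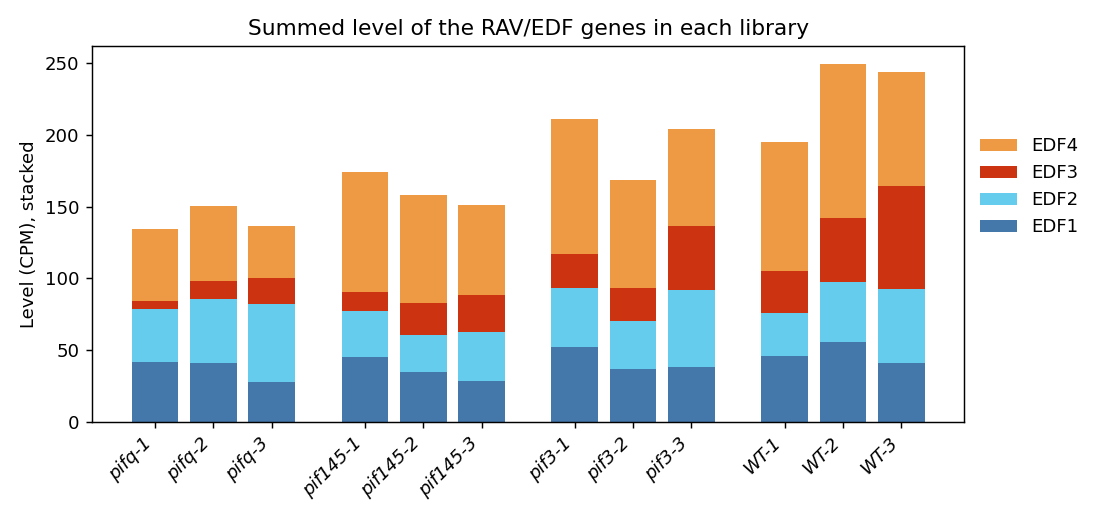
Stacked levels of the 4 genes in CPM (vertical axis) in each library, from *pifq* on the left to WT on the right. The *pifq* sums lie between 134 and 151 CPM and the WT sums between 195 and 250 CPM, and the red *EDF3* segment is thinnest in *pifq*.

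The members also differed among themselves in how libraries of the same genotype varied. *EDF3* was the most variable, with a log2 SD of 0.63 within genotypes, above that of 91.4% of all genes, and a highest library 1.91 to 2.99 times its lowest. Its replicate 3 library was the highest in all 4 genotypes and its replicate 1 library the lowest in 3 of 4, and the replicate number held 87.0% of the sum of squares within genotypes. *EDF1*, *EDF2* and *EDF4* had SDs of 0.29, 0.31 and 0.24 on the log2 scale, and the replicate number held 64.0%, 64.7% and 75.9%. That share was not computed over all genes, whose common dispersion also fell, from 0.0572 to 0.00719, with the replicate block. After the replicate means were taken out, the SD of *EDF3* was 0.26, above that of 75.0% of genes.

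These deviations ran in opposite directions. *EDF2*, like *EDF3*, was highest in replicate 3 in all 4 genotypes, whereas *EDF4* was lowest there in all 4 and *EDF1* in 3 of 4. Over the 12 libraries the deviations from the genotype means had a correlation of 0.95 between *EDF1* and *EDF4* and 0.80 between *EDF2* and *EDF3*, against -0.65 between *EDF3* and *EDF4* and -0.30 between *EDF1* and *EDF2*. The members that varied together were thus not those most alike in sequence. The 12 points share their replicate number across genotypes, and replicate 1 was sequenced on another instrument than replicates 2 and 3, so that these correlations are a description of 3 replicate sets; the part of the instrument was not tested for these deviations.

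**Figure D5:**
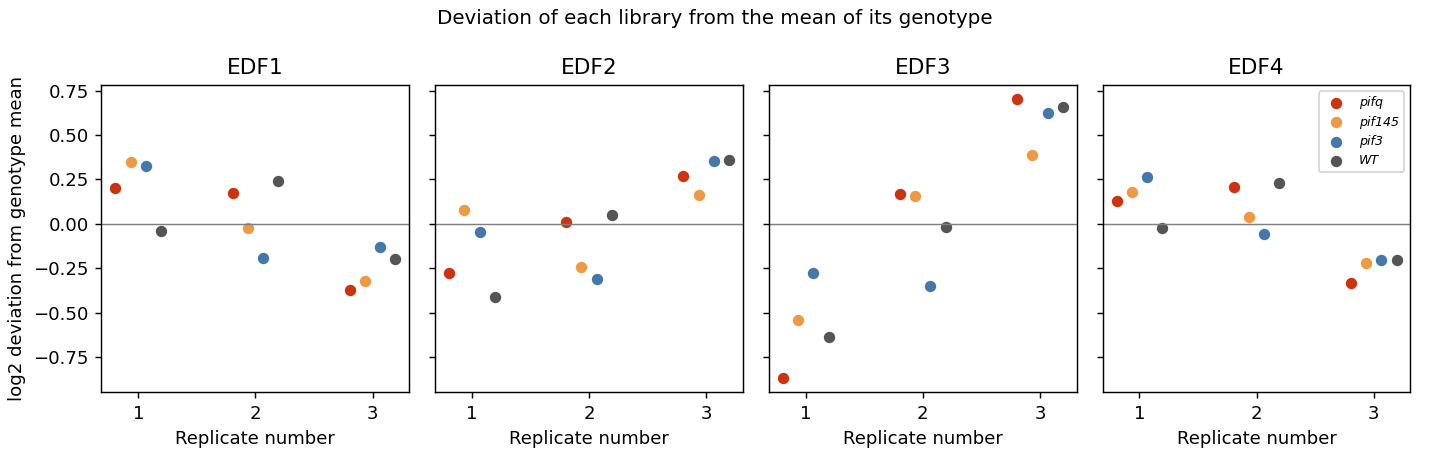
Deviation of each library from the mean of its genotype on the log2 scale (vertical axis), by replicate number (horizontal axis) and genotype (colour). In replicate 3 all points of *EDF2* and *EDF3* lie above 0 and all points of *EDF1* and *EDF4* below 0.

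The genes whose log2 levels followed *EDF3* most closely over the 12 libraries, out of 13713 compared, were *PP2-A11* (correlation 0.975), AT4G01220 (*MGP4*, 0.970) and AT3G61790 (0.968). For *EDF4* they were AT2G16630 (0.969), AT3G23450 (0.968) and *PRA1.B6* (0.965), for *EDF1* AT5G01990 (0.931), the MAP kinase kinase gene *MKK9* (0.901) and *HINT3* (0.897), and for *EDF2* the cytokinin response factor gene *CRF6* (0.898), AT5G61590 (0.842) and the protein kinase gene *CIPK9* (0.839). After subtraction of the replicate means AT5G01990 stayed among the nearest 3 of *EDF1* (0.913), and the nearest genes of the other members were different. Those of *EDF3* were then AT5G11680 (0.995), *LNG2* (0.988) and AT5G16360 (0.982). Such closeness was common after that subtraction, since 164 genes reached a correlation of at least 0.95 with *EDF3* and 146 with *EDF4*. Without the subtraction 15 genes reached it with *EDF3* and 7 with *EDF4*. No gene reached it with *EDF1* or *EDF2* in either measure. These libraries share genotype and replicate number, so the correlations describe them and carry no test.

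Other genes of the ethylene pathway were described by lists. Of the 12 genes of ethylene perception and signalling all were tested, and in *pifq*/WT 1 fell and none rose, beside 3.35% of all genes that fell, with a median log2 of -0.52 beside -0.03 over all genes. The gene that fell was the receptor gene *ERS2*, at 7.24 ± 2.19 CPM in *pifq* and 18.5 ± 6.89 CPM in WT (log2 -1.35, SE 0.37, adjusted p = 0.0244). The receptor gene *ERS1* (log2 -0.90, SE 0.21, adjusted p = 0.00980), the kinase gene *CTR1* (log2 -0.52, adjusted p = 0.0420) and *EIN2*, which carries the signal from the receptors to the nucleus (log2 -0.93, SE 0.28, adjusted p = 0.0405), passed the p threshold at less than 2-fold, as 18.4% of all genes did at any fold. With the replicate block 10 of the 12 were lower and past the p threshold, where 50.5% of all genes passed in either direction, and *ERS2* was still the only call. *EIN3*, which activates EDF genes, had 80.9 ± 8.58 CPM in *pifq*, 91.4 ± 19.6 CPM in *pif145* and 117.7 ± 20.01 CPM in *pif3*, against 115.5 ± 30.98 CPM in WT (*pifq*/WT log2 -0.51, SE 0.22, adjusted p = 0.137, and log2 -0.48, SE 0.09, adjusted p = 0.000111 with the block). Its relative *EIL1* had log2 -0.50 (SE 0.26, adjusted p = 0.213, and log2 -0.51, SE 0.08, adjusted p = 1.49e-05 with the block). None of the 12 was called in *pif145*/WT or in *pif3*/WT, where the list medians were -0.34 and -0.19.

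Of 9 ethylene synthesis genes described 7 were tested, and 2 fell and none rose in *pifq*/WT, beside the same 3.35% of all genes, with a median log2 of -0.15 beside -0.03 over all genes. *ACS5* and *ACS8* encode ACC synthases, which make the ethylene precursor. *ACS5* had 1.24 ± 0.0879 CPM in *pifq*, against 9.77 ± 0.996 CPM in WT (log2 -2.97, SE 0.17, adjusted p = 1.2e-06), and *ACS8* had 0.615 ± 0.259 CPM in *pifq*, against 4.95 ± 0.688 CPM in WT (log2 -3.06, SE 0.30, adjusted p = 3.57e-05). The ACC oxidase gene *ACO4* had 106 ± 33.3 CPM in *pifq*, against 70.4 ± 16.2 CPM in WT (log2 0.59, SE 0.24, adjusted p = 0.109, and log2 0.57, SE 0.16, adjusted p = 0.00502 with the block). With the block 2 of the 7 tested genes, *ACO1* and *ACO4*, passed the p threshold as higher. Another 3, *ACS5*, *ACS8* and *ETO1*, passed as lower, where 50.5% of all genes passed in either direction. The ACC synthase gene *ACS4*, below the filter, had 32 reads in *pifq* and 1 in WT. *ACS5* and *ACS8* were also called in *pifq*/*pif145*, beside 0.725% of all genes, and in *pifq*/*pif3*, beside 5.02%. In *pif145*/WT none of the list was called, and *ACS5* passed the p threshold at less than 2-fold, at 5.74 ± 0.706 CPM in *pif145* and 9.77 ± 0.996 CPM in WT (log2 -0.77, SE 0.15, adjusted p = 0.0197). At any fold 3.31% of all genes passed there. Of 2 genes taken as ethylene response outputs, the hook gene *HLS1* passed the p threshold at less than 2-fold in *pifq*/WT (log2 -0.70, SE 0.18, adjusted p = 0.0181) and *ERF1* was under 1 CPM in every genotype.

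Relatives and partners of the members were also described by lists. Of 9 other RAV-related B3 genes 6 were tested. None was called in any comparison in either fit, beside 8.28% of all genes in *pifq*/WT without the block. With the block *NGA1* (log2 -0.53, adjusted p = 0.0135) and *NGAL2* (log2 -0.42, adjusted p = 0.00568) were lower in *pifq* than in WT at less than 2-fold. At any fold 50.5% of all genes passed there. *RAV3* and *RAV3-like* had no counted read in any library, so among genes with both an AP2 and a B3 domain only the 4 members had counts. Only unique reads were counted, and whether reads of *RAV3* and *RAV3-like* could be unique was not checked. *NGAL1* was the most abundant of these relatives, at 9.33 ± 1.10 CPM in *pifq* and 10.4 ± 0.801 CPM in WT. None of 5 genes of the TPL/TPR corepressors, which B3 repressors recruit, was called in any comparison in either fit (median log2 -0.22 in *pifq*/WT). With the block *TPL* (log2 -0.58, adjusted p = 7.69e-06) and *TPR2* (log2 -0.47, adjusted p = 6.41e-05) were lower in *pifq* than in WT at less than 2-fold, beside the same 50.5% of genes.

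Of 7 genes known as targets of RAV/EDF proteins 3 were tested. *FT* had no read in any library, and *TSF*, *GA3OX2* and *ABI4* were below the filter, with at most 19 reads in any genotype. The gibberellin oxidase gene *GA3OX1* had 7.78 ± 1.73 CPM in *pifq*, against 8.42 ± 1.80 CPM in WT (log2 -0.11, SE 0.29, adjusted p = 0.824). The abscisic acid regulator gene *ABI3* had 17.4 ± 0.391 CPM in *pifq*, against 18.7 ± 4.44 CPM in WT (log2 -0.10, SE 0.17, adjusted p = 0.736). At 27.1 ± 4.09 CPM in *pif3*, *ABI3* passed the p threshold at less than 2-fold in *pifq*/*pif3* (log2 -0.64, SE 0.18, adjusted p = 0.0367) and, with 15.2 ± 0.770 CPM in *pif145*, in *pif145*/*pif3* (log2 -0.84, SE 0.18, adjusted p = 0.0448). At any fold 10.8% of all genes passed in *pifq*/*pif3* and 1.05% in *pif145*/*pif3*. *ABI5*, another regulator of that pathway, had 4.53 ± 0.818 CPM in *pifq*, 4.62 ± 0.890 CPM in *pif145* and 10.6 ± 0.987 CPM in *pif3*, against 7.46 ± 2.87 CPM in WT. It was called as lower in *pifq* than in *pif3* (log2 -1.22, SE 0.26, adjusted p = 0.0116), beside 5.02% of genes called. In *pif145*/*pif3* it was called only with the block (log2 -1.19, SE 0.26, adjusted p = 0.0565, and log2 -1.21, SE 0.17, adjusted p = 6.02e-05 with the block). It was not called against WT in either fit (*pifq*/WT log2 -0.72, SE 0.26, adjusted p = 0.0779, and 0.00474 with the block, at under 2-fold). With the block *ABI3* (log2 0.54, adjusted p = 0.00408) and *ABI5* (log2 0.54, adjusted p = 0.0466) were higher in *pif3* than in WT at less than 2-fold, where 7.88% of genes passed. In *pif145*/WT *ABI5* (log2 -0.66, adjusted p = 0.00769) and *GA3OX1* (log2 -0.35, adjusted p = 0.0313) were lower with the block at less than 2-fold, where 31.7% of genes passed.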

How the data were processed

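The deposited tables hold whole-number read counts per locus, made by the authors from 3′-end RNA-seq libraries read as single ends on a GAIIx (replicate 1) or a HiSeq2000 (replicates 2 and 3). Reads of 36 bases were aligned with Bowtie without mismatches, and those unique to the last 500 bases of the coding strand were counted. The methods name TAIR9 transcripts and the submitters' processing notes name TAIR10, Bowtie 0.12.7 and CASAVA 1.7.0. Counting a 3′ window on the coding strand limits effects of transcript length and of antisense reads, but a lesion outside the window need not lower the count.

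From these counts CPM with TMM factors were computed, and genotypes were compared in edgeR 4.0.16 (R 4.3.3) by its quasi-likelihood F test, on all 12 libraries with genotype as the only factor. The filter filterByExpr left 18356 loci, all 4 members among them, and p-values were adjusted (Benjamini-Hochberg) over all of these. Log2 CPM used a prior count of 2. The replicate numbers in the sample titles were checked as a pairing: the deviations of same-numbered libraries correlated at 0.510 to 0.683 in all 18 pairs, and the common dispersion was 0.0572 without the replicate block and 0.00719 with it. The scripts were tested on simulated data. DESeq2 1.42.0 and the other settings named in the closing section were alternatives.

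All members are described. Genes of the lists could be named, and for likeness the 3 genes with the highest correlation per member among those with a mean of at least 2 CPM. A gene of the ethylene synthesis list is not reported here, and that list is counted without it. The members and lists were chosen with earlier results of these data known. Of the 33602 loci 97.7% were found in the TAIR10.1 annotation of RefSeq, from which places and sequences were read with Python 3.11.15 and Biopython 1.88; the counts were made on another annotation, whose 3′ ends may differ.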

Additional observations from a re-analysis of the deposited data

How the results depend on the processing

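Members called in *pifq*/WT, 1 as reported, were 2 with the replicate block, with the platform as a term, with no scaling factors, with no filter on low counts, on adjusted p alone and in the replicate block with number 1 left out, and between 0 and 2 when a replicate number or library was left out. In *pif145*/WT, 0 as reported, the count was 1 (*EDF3*) with DESeq2, the platform term, the replicate block and the replicate block with number 1, 2 or 3 left out. In *pifq*/*pif3*, 0 as reported, it was 1 under those same settings, with no scaling factors and on adjusted p alone (*EDF4* there, *EDF3* elsewhere). For the interaction contrast, 0 as reported, it was 1 in the replicate block with number 1 left out (*EDF2*, log2 0.84, adjusted p = 0.0001) and with number 2 left out (*EDF4*, log2 -0.69, adjusted p = 0.0267). The blocked fits with a number left out were chosen after seeing the data. Of 15 member values past the p threshold in the blocked fit, 7 passed with each number left out, namely *EDF3* and *EDF4* in *pifq* against each other genotype and *EDF3* in *pif145*/WT, and 8 did not. The replicate block changed no other call of a member. Over all genes it gave 652 calls instead of 314 in *pif145*/WT, 135 instead of 7 in *pif3*/WT, 346 instead of 133 in *pifq*/*pif145*, 451 instead of 148 in *pif145*/*pif3* and 472 instead of 20 for the interaction contrast. Omitting the scaling factors moved the median of all genes in *pifq*/WT by -0.17 and in *pif3*/WT by -0.10 on the log2 scale.

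Of 420 member values with a replicate number or library left out, 391 kept direction and side of the threshold, as did 241 of 272 under the other settings. Reversals concerned values never called as reported. With no scaling factors the log2 value was -0.0453 for *EDF1* in *pifq*/*pif145*, -0.038 for *EDF2* in *pif3*/WT and -0.0202 for *EDF2* in *pifq*/WT. In the replicate block with number 2 left out it was -0.0605 for *EDF1* in *pifq*/*pif145*, 0.0444 for *EDF1* in *pif3*/WT, -0.10 for *EDF1* in the interaction contrast and -0.056 for *EDF2* in *pifq*/*pif3*, and with number 1 left out -0.12 for *EDF2* in *pif3*/WT and 0.18 for *EDF3* in the interaction contrast. With replicates or libraries left out, *EDF1* ranged from -0.11 to 0.22 in *pifq*/*pif145*, from -0.38 to 0.0669 in *pif3*/WT and from -0.13 to 0.50 in the interaction contrast. *EDF2* ranged from -0.0494 to 0.33 in *pifq*/WT, from -0.15 to 0.25 in *pif3*/WT and from -0.0565 to 0.28 in *pifq*/*pif3*. *EDF3* ranged from -0.44 to 0.33 in the interaction contrast and *EDF4* from -0.20 to 0.0434 in *pif145*/*pif3*. The cause of these shifts was not tested.

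With 3 libraries per genotype, differences under 2-fold were mostly within the spread without the block. Counts of 144 to 4105 reads per library and member left counting error small beside that spread.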
